A study of Mus musculus with 6 samples.

Results

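Eph receptors are receptor tyrosine kinases, and their ligands, the ephrins, sit on the surface of neighbouring cells, so the pair signals where cells touch and can signal into both of them. Ephrins of the A class are held to the membrane by a lipid anchor and mainly bind EphA receptors, whereas ephrins of the B class span the membrane and mainly bind EphB receptors, with EphA4 able to bind both classes. Contact between receptor and ligand often leads to repulsion and to sharp borders, and in the mouse embryo the family is known for somite boundaries, hindbrain segments and axon guidance. The transcripts described here were 7 receptors (Epha1, Epha3, Epha4, Epha5, Epha7, Ephb2 and Ephb3) and 3 ephrins (Efnb1, Efnb2 and Efna5), chosen by name, and they made up 10 of the 25595 genes counted.

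The 10 genes were followed in single cells of mouse stembryos, which are aggregates of wild-type embryonic stem (mES) cells that elongate into trunk-like structures after a pulse of the Wnt agonist Chiron. Every group was wild type and received the same pulse. Whole stembryos were collected at 120 h and at 96 h after aggregation, with 2 libraries at each time, and further stembryos of 120 h were dissected, and their anterior parts gave 1 library and their posterior parts another. Each library was made from pooled stembryos, and those that had not elongated at 120 h were set aside, so the 120 h groups carry that selection. Stembryos lack most head structures and hold few cells of some lineages, so they model the elongating trunk only.

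The 6 libraries held 2649 to 7887 cells each, with 24303317 to 117580506 unique molecular identifiers (UMIs, each standing for 1 captured transcript) and medians of 8723 to 22811 UMIs per cell. The study's 12 cell clusters were used as annotated: 3 of neuromesodermal progenitors (NMPs A, B and C), 2 of spinal cord, early and late presomitic mesoderm (PSM), the determination front where the next somite boundary is set, 2 of somites, endoderm, and a pluripotent or germ-like cluster. Of the 26893 barcodes, 75 occurred in more than 1 library. The 9 listed somite markers were high in the somite clusters (summed level 1749 to 2156 CPM, UMIs of these genes per 1000000 UMIs) and as high at the determination front (1876 to 2168 CPM). Markers of the front did not set it apart from late PSM (243 to 913 CPM, against 348 to 841 CPM). Those of late PSM did (194 to 536 CPM at the front, against 894 to 1054 CPM). Spinal cord markers overlapped between spinal cord A (747 to 1192 CPM) and somite A (1038 to 1136 CPM), with 1371 to 1554 CPM in spinal cord B and 1223 to 1349 CPM in somite B. Markers of endothelium, where Efnb2 and Ephb4 are known from vessels, summed to 1.82 to 23.8 CPM in all clusters other than the pluripotent or germ-like one.

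Coordinates are those of the mm10 genome. Among the receptors, Epha1 is at chr6:42358487-42373268, Epha3 at chr16:63543534-63864175, Epha4 at chr1:77367185-77515088, Epha5 at chr5:84054761-84417382 and Epha7 at chr4:28813131-28967499. Ephb2 is at chr4:136647539-136835988 and Ephb3 at chr16:21204755-21223305. Of the ephrin genes, Efnb1 is at chrX:99136130-99148991, Efnb2 at chr8:8617434-8661242 and Efna5 at chr17:62604184-62881317. Over all 6 libraries the genes held between 166 UMIs (Epha3) and 36192 UMIs (Epha5).

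The promoters of the receptor Epha4 and the ephrins Efnb1 and Efnb2, the 3 genes called in at least 1 of the splits of front and somite cells given below, are shown because Mesp2, the boundary factor used below to split the cells, belongs to a class of factors that bind E-boxes. Each line gives the 250 bases before the start of the gene in RefSeq (GRCm38.p6), 5′ to 3′ on the strand of the gene, with any E-box (CANNTG, read the same way on both strands) in capitals.
Epha4, chr1:77515089-77515338, minus strand: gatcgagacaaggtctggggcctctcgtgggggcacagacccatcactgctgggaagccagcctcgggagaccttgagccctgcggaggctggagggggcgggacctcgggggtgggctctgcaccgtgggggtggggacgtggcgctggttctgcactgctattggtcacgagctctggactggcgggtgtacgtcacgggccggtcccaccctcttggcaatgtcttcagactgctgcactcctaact
Efnb1, chrX:99135811-99136060, plus strand: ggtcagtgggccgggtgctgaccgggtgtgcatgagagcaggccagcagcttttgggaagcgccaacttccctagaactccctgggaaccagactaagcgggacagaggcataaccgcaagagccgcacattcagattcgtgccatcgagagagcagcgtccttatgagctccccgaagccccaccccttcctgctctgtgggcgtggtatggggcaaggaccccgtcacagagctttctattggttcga
Efnb2, chr8:8661243-8661492, minus strand: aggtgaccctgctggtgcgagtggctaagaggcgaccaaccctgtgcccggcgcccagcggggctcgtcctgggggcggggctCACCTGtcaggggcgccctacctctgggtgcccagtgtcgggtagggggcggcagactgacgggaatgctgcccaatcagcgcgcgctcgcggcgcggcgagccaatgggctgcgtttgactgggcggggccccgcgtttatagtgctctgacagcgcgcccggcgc
The Efnb2 window held 1 E-box and the windows of Epha4 and Efnb1 held 0, while 66.2% of 32536 promoters of the same length held at least 1. Sequence outside these windows was not searched and binding was not measured, so the counts do not say which genes Mesp2 acts on. All 10 genes had a promoter entry, with 2 E-boxes each for Epha1 and Ephb3, 1 for Ephb2, and 0 for Epha3, Epha5, Epha7 and Efna5.

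Each of the 10 genes had its own order of levels across the clusters at 120 h. These levels are CPM with factors from the trimmed mean of M-values, over 3 pools (whole replicate 1, whole replicate 2, and both dissected parts together). The clusters had been drawn from these same cells, so their levels are a description with no test. CPM of 3′ counts are set between clusters for 1 gene and not between genes.

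Epha1 and Epha5 had their highest means in progenitors and their lowest in somites. The single endoderm pool was near NMPs C for both, with 24.0 CPM of Epha1 and 155 CPM of Epha5. That pool held 2507 CPM of endoderm markers, and also 1060 CPM of NMP markers, within the 776 to 1326 CPM of NMPs C. The part of these markers in its levels was not tested. Epha1, the first Eph receptor to be named, stood at 22.4 ± 11.1 CPM in NMPs C (SD, n = 3) and 11.9 ± 4.69 CPM in spinal cord A, which overlapped. It had 11.4 ± 3.25 CPM in late PSM, 1.46 ± 0.713 CPM at the determination front and 0.588 ± 0.157 CPM in somite A cells. Epha5, known from axon guidance in the brain, stood at 162 ± 14.6 CPM in NMPs C and 161 ± 40.0 CPM in spinal cord A cells, and these clusters overlapped. It then took 67.1 ± 44.0 CPM in spinal cord B, 18.7 ± 4.80 CPM in late PSM and 3.41 ± 2.38 CPM in somite A cells. Neither gene differed between somite A and somite B beyond the spread of the pools.

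Epha3, Epha7 and Ephb3 were highest in somites. Epha7, a receptor known from neural tube closure and cortical maps, stood at 51.0 ± 1.73 CPM in somite B, 29.2 ± 2.80 CPM in somite A and 20.2 ± 11.6 CPM in spinal cord B cells, and at 8.89 ± 3.42 CPM or less in the other 4 clusters with 3 pools. Epha3, known from heart valve formation, was scarce everywhere, with 2.83 ± 1.37 CPM in somite B and 0.927 ± 0.278 CPM in somite A. Ephb3, a receptor for B ephrins known from axon crossing and the gut epithelium, stood at 14.8 ± 8.05 CPM in somite B and 12.0 ± 5.40 CPM in somite A, which overlapped. Its spread followed the pools: the dissected pool had less Ephb3 than either whole pool in 7 of 7 clusters, with a median ratio of 0.172 to the mean of the whole pools. Efnb2 was likewise lower in the dissected pool in 6 of 7 clusters (median ratio 0.720) and Epha7 in 5 of 7 (median ratio 0.648). Efnb1, Epha1 and Epha5 ran the other way, above both whole pools in 5, 4 and 4 of 7 clusters (median ratios 1.12, 1.48 and 1.45). They were below both in 2, 1 and 2 clusters. The annotation puts both dissected libraries in batch 2 and the whole 120 h replicates in batches 1 and 4, so dissection and batch cannot be told apart.

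Epha4 and Efnb2, a receptor and a ligand that can bind each other, were both highest at the determination front. Epha4, known from somite boundaries and motor circuits, had 98.9 CPM there in the dissected pool and 93.9 and 88.8 CPM in whole replicates 1 and 2, and its lowest mean among clusters with 3 pools was in somite A (23.7, 36.9 and 29.8 CPM in the same order). Efnb2, known from somite polarity and arteries, had 89.1, 117 and 117 CPM at the front. Its next levels were 66.3 ± 12.4 CPM in somite A and 63.8 ± 13 CPM in somite B, which overlapped, and NMPs C had the lowest mean among clusters with 3 pools, 8.63 ± 4.16 CPM. The few front cells of 96 h, 27 cells of whole replicate 1, also held 144 CPM of Epha4 and 175 CPM of Efnb2.

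Ephb2, Efnb1 and Efna5 followed other orders. Ephb2, a receptor for B ephrins known from axon crossing, had its highest mean with 3 pools in NMPs C (23.6 ± 1.26 CPM) and its lowest at the front (7.07 ± 0.388 CPM), and the single endoderm pool held 39.0 CPM. Efnb1, the X-linked ephrin whose loss in people disturbs skull and face formation, was highest in spinal cord B (38.3 ± 4.39 CPM) and late PSM (31.3 ± 2.31 CPM), which overlapped, and among clusters with 3 pools lowest in somite A (12.7 ± 0.212 CPM), where it overlapped the front. Efna5, a ligand of EphA receptors that guides retinal axons, was highest in somite B (28.7 ± 6.87 CPM), overlapping spinal cord B (19.5 ± 4.31 CPM), and among clusters with 3 pools lowest at the front (7.66 ± 0.154 CPM).

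**Figure D1:**
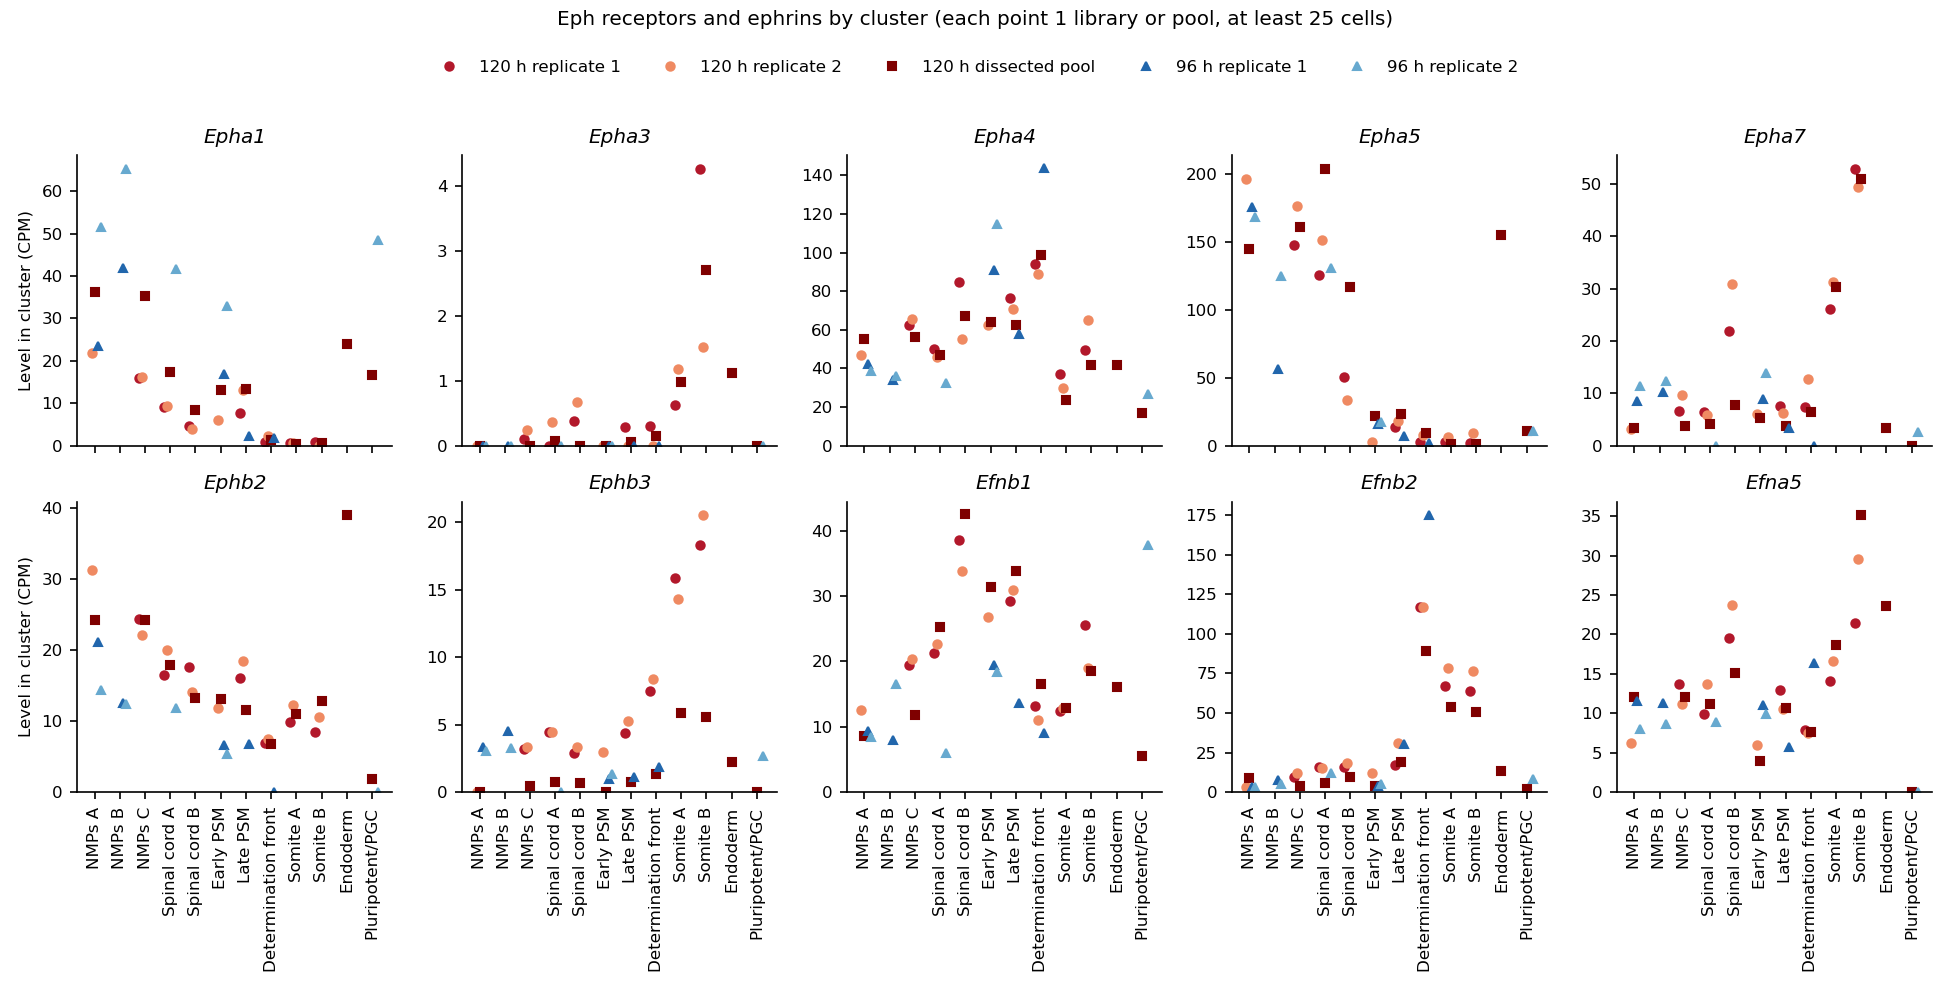
Level of each gene (CPM, linear axes that differ between panels) in the 12 clusters, 1 point for each library or pool with at least 25 cells of the cluster. Epha4 and Efnb2 peak at the determination front and Epha7 and Ephb3 in somites. Epha5 is high in NMPs, spinal cord A and the single endoderm pool, and the dissected pool (squares) lies low for Ephb3.

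Along the path from progenitor to somite, the levels turned over on both sides of the determination front. At the front Epha4 and Efnb2 were higher than in late PSM in all pools without overlap (7.02% of 16496 genes were higher in this way), and Epha1, Epha5, Ephb2, Efnb1 and Efna5 were lower (7.18% of all genes). Efnb2 took 108 ± 16.2 CPM at the front and 22.3 ± 7.51 CPM in late PSM, and Efnb1 13.6 ± 2.81 and 31.3 ± 2.31 CPM, so these B ephrins ran in opposite directions. One step earlier, Efnb1 and Efnb2 were higher in late PSM than in NMPs C (6.68% of all genes), and Epha1, Epha5 and Ephb2 were lower (8.26%).

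At the next step, somite A cells had more Epha3, Epha7, Ephb2 and Efna5 than front cells (11.9% of all genes were higher) and less Epha1, Epha4 and Efnb2 (7.89%). Somite B had more Epha3, Epha4, Epha7, Efnb1 and Efna5 than somite A (4.42% of all genes were higher), and 0 of the 10 genes were lower without overlap (3.93%). Epha4 took 52.4 ± 11.9 CPM in somite B and 30.1 ± 6.59 CPM in somite A.

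On the neural path, spinal cord A had more Efnb1 than NMPs C (1.85% of all genes were higher) and less Epha4 and Ephb2 (5.69%). Spinal cord B had more Epha4, Epha7, Efnb1 and Efna5 than spinal cord A (6.54% of all genes) and less Epha1 and Epha5 (4.22%). Efnb1 reached 38.3 ± 4.39 CPM in spinal cord B and 23.0 ± 2.01 CPM in spinal cord A. All 10 genes passed the filter on low counts in these pairs.

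The question of what changes over the last day of culture was asked first in whole stembryos. Efnb2 rose at 120 h. It stood at 43.1 and 38.5 CPM in the 120 h replicates, against 4.73 and 5.17 CPM in the 96 h replicates, a log2 change of 3.05 ± 0.14 (SE, edgeR quasi-likelihood test, adjusted p = 0.0211). It was the 1 of the 10 genes called, with 0.580% of the 18114 genes tested called higher and 0.845% called in either direction, and it kept its call under every alternative run (log2 change 2.94 to 3.13). The median log2 change of the 10 genes was 0.48, against 0.02 for all genes.

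Replicates of the same number shared a batch and deviated together, and with the replicate as a block 7 of the 10 genes were called, with 8.89% of all genes called higher and 8.15% lower. In that blocked test Epha1 fell by 2.16 on the log2 scale (adjusted p = 0.00237), with 7.53 and 7.38 CPM at 120 h, against 21.4 and 55.9 CPM at 96 h. The groups did not overlap, and the 96 h replicates lay far apart. Epha5 fell by 0.64 (adjusted p = 0.00528), with 64.6 and 75.3 CPM at 120 h, against 111 and 105 CPM at 96 h.

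Of the genes that rose with the block, Ephb3 had 8.28 and 6.83 CPM at 120 h, against 2.44 and 2.80 CPM at 96 h (log2 change 1.56, adjusted p = 0.00175). Epha7 had 16.9 and 19.5 CPM at 120 h, against 8.90 and 12.2 CPM at 96 h (log2 change 0.81, adjusted p = 0.00341). Efnb1 had 20.1 and 20.7 CPM at 120 h, against 13.8 and 16.2 CPM at 96 h (log2 change 0.45, adjusted p = 0.0231). For each of these the 120 h replicates lay above both 96 h replicates.

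Epha3 had 56 and 16 UMIs at 120 h, against 0 UMIs in both 96 h replicates. Set against a floor of 3 UMIs over the 96 h group (0.0211 CPM), its 0.661 CPM was at least 31.2-fold higher at 120 h, where only counting error is covered, and it was called with the block (adjusted p = 0.00425). Epha4 had 62.4 and 54.0 CPM at 120 h, against 64.3 and 52.5 CPM at 96 h, and its groups overlapped in full (log2 change 0.00 ± 0.15). Ephb2 (log2 change 0.26 ± 0.19) and Efna5 (0.51 ± 0.19) passed neither test.

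Cell types differed between the times. Front cells made up 12.6% and 7.72% of the 120 h replicates, against 0.547% of 96 h replicate 1 and no cell of replicate 2, and each 96 h replicate held 1 somite A cell. Somite markers summed to 1065 and 697 CPM in the whole 120 h replicates, against 78.5 and 70.5 CPM in those of 96 h. In whole stembryos a change in the share of a cell type and a change of RNA per cell cannot be told apart, so the change was also measured within progenitors and within PSM. No single cluster had at least 25 cells in all 4 whole libraries.

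Within NMP cells (clusters A, B and C together) 0 of the 9 genes tested were called by edgeR, where 0.00642% of 15584 genes were. There were 4 at an unadjusted p under 0.05, and DESeq2 called 3. With the replicate block Epha4 and Efnb2 were called higher (7.20% of all genes were called, 3.65% higher and 3.55% lower). Epha4 had 64.6 and 65.2 CPM at 120 h, against 44.4 and 37.1 CPM at 96 h (log2 change 0.67 ± 0.10, adjusted p = 0.0158). Efnb2 had 10.1 and 11.9 CPM, against 3.56 and 4.90 CPM (1.41 ± 0.17, adjusted p = 0.00812). Both genes lay apart between the times in these sums, which were mostly NMPs C at 120 h, NMPs A in 96 h replicate 1 and NMPs B in 96 h replicate 2. Markers of other types moved with time in these sums. Somite markers (9 of 9 in the table) summed to 86.2 and 81.2 CPM at 120 h, against 11.6 and 21.2 CPM at 96 h, spinal cord markers (9 of 9) to 1122 and 1266 CPM, against 689 and 574 CPM, and endoderm markers (8 of 8) to 18.3 and 23.6 CPM, against 94.8 and 136 CPM. At 0 were Pax1 in both 96 h replicates, Tbx18 in 96 h replicate 2, Olig3 in 96 h replicate 1, and Shh in all but 96 h replicate 1. Their part in the result was not tested. In NMPs A alone, with at least 10 cells in each library, a comparison chosen after seeing the data, 0 of 7 genes tested were called by edgeR. This held with or without the block (0.0437% of 9153 genes without it and 0.940% with it). At an unadjusted p under 0.05 there were 2 with it and 0 without it. Efnb2 was too scarce to be tested there, with 4 and 1 UMIs in the 13 and 34 cells of 120 h replicates 1 and 2.

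Within PSM cells (early and late together) Efnb2 was the 1 gene of 9 tested that was called (0.433% of 12021 genes were called, 0.299% higher). It had 17.4 and 26.1 CPM at 120 h, against 4.33 and 5.05 CPM at 96 h (log2 change 2.22 ± 0.30, adjusted p = 0.0410). Somite markers (9 of 9 in the table), of cells in which Efnb2 was high, moved the same way in these sums, with 570 and 447 CPM at 120 h, against 149 and 255 CPM at 96 h, and Pax1 at 0 in both 96 h replicates and Tbx18 in 96 h replicate 2. Their part in the result was not tested. With the block 4 genes were called higher (3.66% of all genes) and Epha1 lower (3.23%). Ephb2 had 16.1 and 16.7 CPM at 120 h, against 6.90 and 5.23 CPM at 96 h (1.38 ± 0.23, adjusted p = 0.00753). Ephb3 had 4.34 and 4.68 CPM, against 1.01 and 1.31 CPM, resting on 7 UMIs in each replicate 2 (2.06 ± 0.37, adjusted p = 0.0112). Efnb1 had 29.1 and 29.4 CPM, against 20.0 and 18.1 CPM (0.62 ± 0.15, adjusted p = 0.0411). Epha1 had 7.67 and 11.4 CPM at 120 h, against 17.1 and 32.7 CPM at 96 h (log2 change -1.24 ± 0.20, adjusted p = 0.00547). These sums were mostly late PSM at 120 h and early PSM at 96 h, so time and cluster cannot be told apart in them. Over pools that include the dissected one, late PSM alone had 22.3 ± 7.51 CPM of Efnb2 at 120 h, against 30.7 CPM in its single 96 h sum. Early PSM alone had 7.92 ± 5.65 CPM of Efnb2, against 4.39 ± 1.04 CPM, with overlapping ranges. For Epha1, late PSM had 11.4 ± 3.25 CPM, against 2.28 CPM, and early PSM 9.52 ± 5.04 CPM, against 24.9 ± 11.5 CPM.

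The change over time differed between PSM and NMP cells for 3 of the 9 genes tested, by a test of the interaction with the library as a block (0.957% of 14842 genes higher and 0.600% lower). The sums of both classes changed in their clusters with time, so time and cluster cannot be told apart here. The difference for Epha4 was -1.10 ± 0.15 on the log2 scale (adjusted p = 0.000232), with PSM levels of 76.2 and 67.6 CPM at 120 h, against 93.3 and 114 CPM at 96 h. Late PSM alone had 69.9 ± 6.89 CPM of Epha4 at 120 h, against 58.0 CPM in its single 96 h sum. Early PSM alone had 63.3 ± 1.07 CPM, against 103 ± 17.1 CPM. Ephb2 (difference 1.02 ± 0.20, adjusted p = 0.0103) and Ephb3 (2.11 ± 0.42, adjusted p = 0.00964) changed more in PSM. Ephb3 in NMPs had 3.32 and 3.35 CPM at 120 h, against 3.49 and 3.30 CPM at 96 h. None of the 3 was called without 120 h replicate 1 (adjusted p = 0.0838 for Epha4, 0.346 for Ephb2 and 0.404 for Ephb3), and without 96 h replicate 1 only Epha4 was. Ephb2 was also not called without 120 h replicate 2 (adjusted p = 0.0699), nor Ephb2 and Ephb3 by DESeq2 (adjusted p = 0.263 and 0.271).

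**Figure D2:**
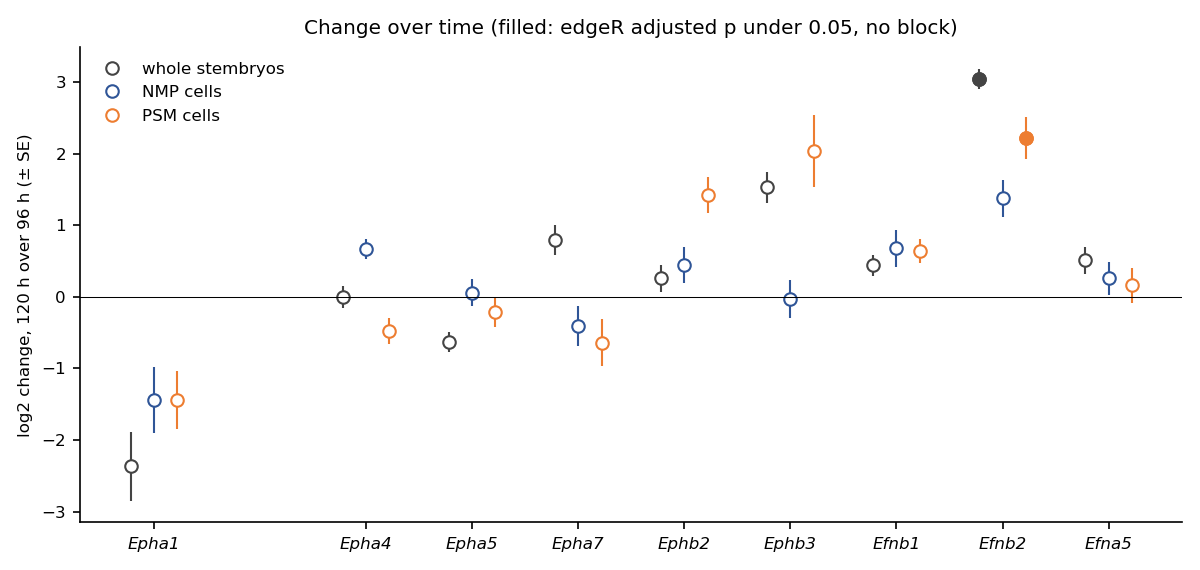
Log2 change (120 h over 96 h, points with SE) of 9 genes in whole stembryos, NMP cells and PSM cells, 2 libraries at each time, without the block. Epha3 is left out because it had 0 UMIs at 96 h. Only Efnb2 is filled (called), at 3.05 in whole stembryos and 2.22 in PSM cells, and Epha4 lies above 0 in NMP cells and below 0 in PSM cells.

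Cells at the determination front were then split by Mesp2, the transcription factor that sets the next somite boundary and that is known in mouse to switch on Epha4. Epha4 was higher in the 246 front cells with a Mesp2 UMI than in those with none. It had 178, 159 and 102 CPM in Mesp2 cells of the dissected pool and of whole replicates 1 and 2, against 90.7, 87.8 and 87.8 CPM in the other front cells. All 3 pools were higher in Mesp2 cells, least so in replicate 2, whose 17 Mesp2 cells held 19 Epha4 UMIs. The log2 change was 0.92 ± 0.10 (edgeR with the pool as a block, adjusted p = 4.73e-17). The log2 ratios of the pools were 0.97, 0.85 and 0.22 in the same order, a spread that this SE and p-value do not measure. In the posterior part alone, Epha4 had 178 CPM in Mesp2 cells, against 116 CPM in other front cells, and with that part in place of the dissected pool the change was 0.78 (adjusted p = 2.73e-09), an alternative added after seeing the data.

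Efnb1 was called as well, and 2 of the 8 genes tested were called in all, where 2.65% of 10248 genes were called higher and 2.32% lower. It had 31.5, 17.3 and 5.38 CPM in Mesp2 cells, the last from 1 UMI, against 15, 12.6 and 11.6 CPM in other front cells (log2 change 0.91 ± 0.21, adjusted p = 0.000801). The groups overlapped, the direction held in 2 of 3 pools, and the call was lost without the dissected pool (0.32, adjusted p = 0.955), with DESeq2 (0.65), without cells of high UMI count (0.69, adjusted p = 0.0669) and in thinned cells (1.02, adjusted p = 0.264). Efnb2 stood level, with 90.4, 112 and 91.4 CPM in Mesp2 cells, against 91.7, 116 and 120 CPM in other front cells (-0.02 ± 0.11). Epha7 had 3.32, 1.33 and 5.38 CPM, against 7.19, 7.73 and 13.5 CPM, lower in 3 of 3 pools, but from 8, 1 and 1 UMIs (-1.33 ± 0.46, adjusted p = 0.0741). Epha1 and Epha3 were too scarce to test.

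Markers of PSM moved with the split. Those of late PSM, 6 of 6 in the table, summed to 608 to 865 CPM in Mesp2 cells, against 158 to 281 CPM in other front cells. Those of early PSM, also 6 of 6, summed to 735 to 962 CPM, against 178 to 283 CPM, with Msgn1 at 0 in all. Spinal cord markers ran the other way, with 533 to 680 CPM in Mesp2 cells, against 767 to 832 CPM, and the part of these lists in the result was not tested. Cyp26a1 was at 0 in the Mesp2 cells of replicate 2. Endothelial markers summed to 0 to 4.98 CPM, against 4.46 to 7.30 CPM, with Cdh5 at 0 throughout. Median UMIs per cell were 12911, 15430 and 8253 in Mesp2 cells, against 13530, 16581 and 9842 in the others. Without the block that pairs the sums of a pool, edgeR called 0 of the genes (Epha4 0.84, adjusted p = 0.169).

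Somite cells were split by the polarity factors Uncx, which marks the posterior side of a somite, and Tbx18, which marks the anterior side. Efnb2 and Epha4 were higher in the 3839 cells with only Uncx than in the 246 with only Tbx18. Efnb2 had 57.1, 74.1 and 88.2 CPM in Uncx cells of the dissected pool and whole replicates 1 and 2, against 26.7, 43.7 and 56.2 CPM in Tbx18 cells. Every pool was higher in Uncx cells and the ranges over pools did not overlap (log2 change 0.83 ± 0.13, adjusted p = 2.89e-06). Epha4 had 32.7, 46.0 and 43.0 CPM in Uncx cells, against 29.3, 18.5 and 10.5 CPM in Tbx18 cells, the last from 3 UMIs (0.68 ± 0.18, adjusted p = 0.0180). Its ranges did not overlap either, but the dissected pool hardly differed (log2 ratio 0.16, against 1.31 and 2.03 in whole replicates 1 and 2). These were 2 of the 8 genes tested, where 1.36% of 11291 genes were called, 0.779% higher and 0.585% lower. The clusters were mixed unevenly. Tbx18 cells were 65 of somite A and 66 of somite B in the dissected pool. They were 78 and 9 in whole replicate 1, and 28 and 0 in replicate 2. Uncx cells were 1239 and 847, 848 and 415, and 393 and 97 in the same order. Epha4 was higher in somite B (52.4 ± 11.9 CPM) than in somite A (30.1 ± 6.59 CPM). In sums over both clusters the marker and the cluster cannot be told apart.

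The other 6 genes tested passed in neither direction, among them Epha7 (36.7, 34.1 and 37.2 CPM in Uncx cells, against 52.9, 27.8 and 28.1 CPM in Tbx18 cells) and Efnb1 (14.6, 18.3 and 15.3 CPM, against 19.4, 12.6 and 10.5 CPM). The Epha4 call was lost without whole replicate 1 (0.37, adjusted p = 0.999) and with DESeq2 (0.81, adjusted p = 0.549), and neither gene was called without the block, in somite B alone or in cells thinned to 5000 UMIs (adjusted p from 0.0578 to 1 for Efnb2). In these settings the Efnb2 change was 0.85, 0.89 and 0.85, and that of Epha4 was 0.82, 0.14 and 0.25. The 6 listed markers of the determination front, all in the table, moved with the split. They summed to 34.3 to 68.2 CPM in Uncx cells, against 13.2 to 17.6 CPM in Tbx18 cells, where Mesp2 was at 0 in both whole replicates and Ripply2 in the dissected pool and replicate 2. Somite markers, a list that holds Uncx and Tbx18 themselves, summed to 2030 to 2305 CPM, against 1515 to 1723 CPM, and spinal cord markers to 1157 to 1226 CPM, against 796 to 979 CPM, with Olig3 at 0 in all. The part of these lists in the result was not tested.

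**Figure D3:**
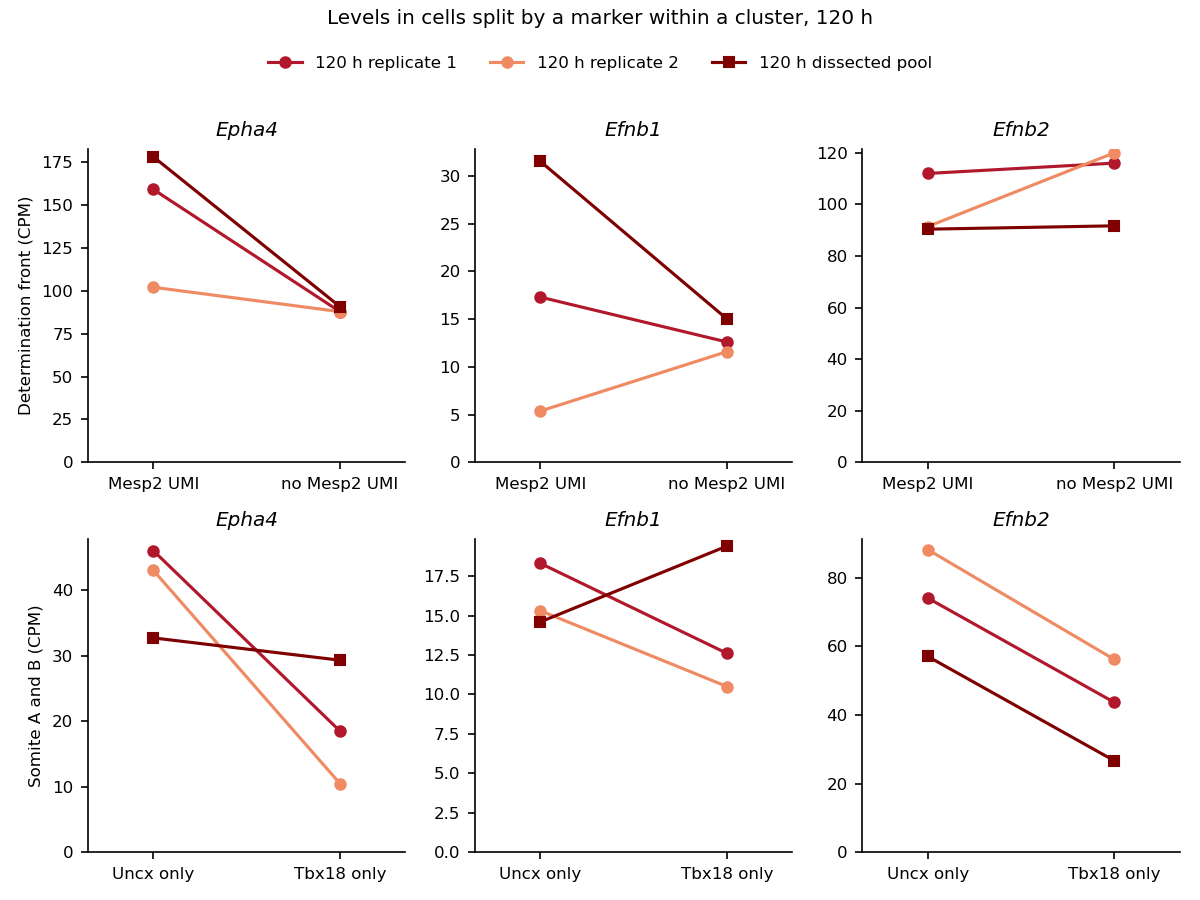
Levels (CPM, axes from 0) of Epha4, Efnb1 and Efnb2 at 120 h, each line 1 pool, in determination front cells with and without a Mesp2 UMI (upper row) and in somite cells with only Uncx or only Tbx18 (lower row). Epha4 lies higher in Mesp2 cells in all 3 pools, Efnb2 stays level there, and Efnb2 is higher in Uncx cells in all 3 pools.

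The dissected parts gave 1 library each, so their values carry exact Poisson intervals (95%, counting error only) and no test. In the whole parts Epha5 had 1.55 CPM (1.24 to 1.93) in the anterior part, against 134 CPM (132 to 137) in the posterior part, and Epha1 had 0.530 CPM (0.352 to 0.766), against 17.3 CPM (16.5 to 18.1). Epha7 ran the other way, with 36.5 CPM (34.9 to 38.2) in the anterior part and 4.80 CPM (4.39 to 5.24) in the posterior part. Ephb3 had 5.25 CPM, against 0.803 CPM, and Efna5 24.4 CPM, against 12.0 CPM. Efnb2 had 51.2 CPM in the anterior part and 21.7 CPM in the posterior part, and Epha4 30.9 CPM and 66.6 CPM. The parts differ in cell types, with 44.5% somite B cells in the anterior part and 0.0127% in the posterior part.

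With the cluster held fixed, front cells still differed between the parts. Epha4 had 26.9 CPM (22.3 to 32.3) in the 268 anterior front cells, against 120 CPM (114 to 125) in the 1140 posterior front cells. Of these, 4 anterior and 177 posterior cells had a Mesp2 UMI. Among front cells with none, Epha4 had 27.7 CPM in the anterior part, against 116 CPM in the posterior part. Other differences in state between the front cells of the parts were not tested. Efnb2 had 67.1 CPM (59.6 to 75.3), against 95.7 CPM (90.8 to 101). Epha5 had 1.16 CPM (0.377 to 2.71), against 11.4 CPM (9.81 to 13.3), and Epha7 had 12.1 CPM (9.02 to 15.8), against 5.00 CPM (3.95 to 6.26). The intervals of Ephb2 overlapped (6.50 CPM, against 6.89 CPM). So did those of the scarce Epha1 (0.697 CPM, against 1.56 CPM) and Epha3 (0.232 CPM, against 0.13 CPM). In somite A, with 1881 anterior and 68 posterior cells, Epha7 had 30.7 CPM (28.6 to 33.0), against 10.9 CPM (4.97 to 20.6), while Epha4 (23.4 CPM, against 25.4 CPM) and Efnb2 (53.1 CPM, against 50.7 CPM) had overlapping intervals.

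**Figure D4:**
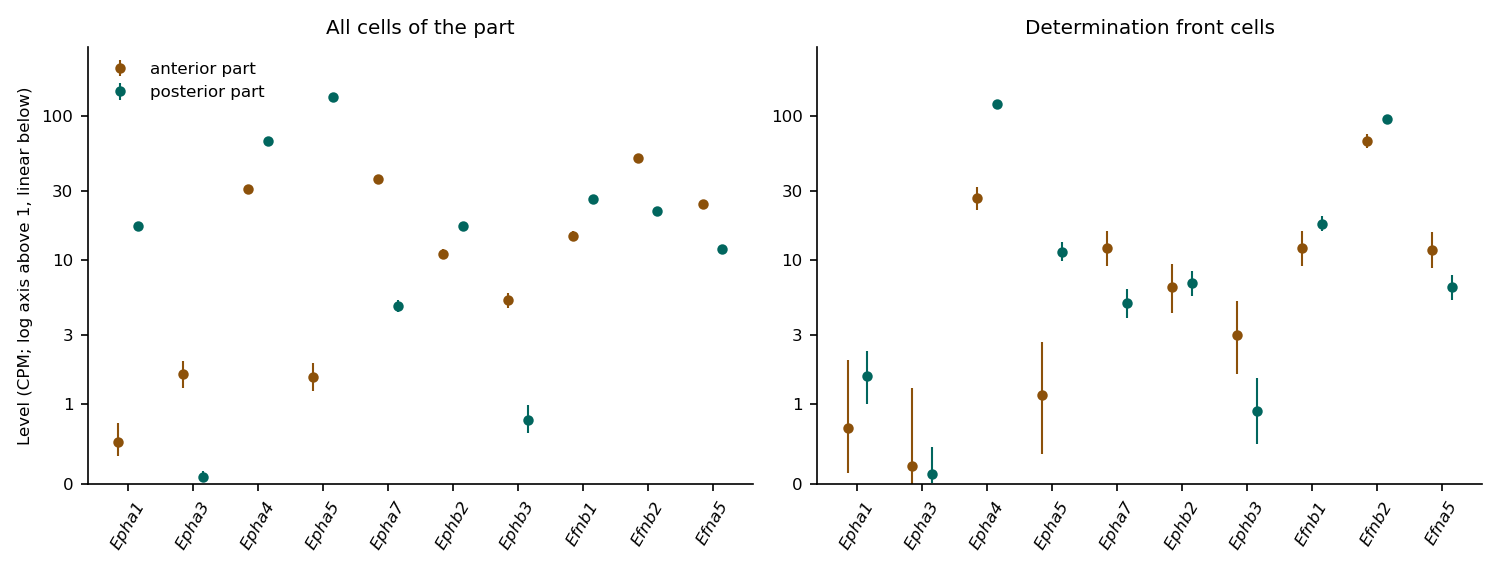
Level of each gene (CPM, log axis above 1 and linear below) in the anterior and the posterior part at 120 h, for all cells and for determination front cells, 1 library each, with exact Poisson intervals (95%). Among front cells Epha4 stands at 26.9 CPM in the anterior part and 120 CPM in the posterior part. The intervals of Epha1, Epha3 and Ephb2 overlap there.

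Likeness of pattern was measured over 39 sums of a cluster in a library, which share libraries and clusters. Pearson's r of log2(CPM + 1) was 0.763 for Epha1 with Epha5 and 0.731 for Epha7 with Ephb3, and -0.861 for Epha1 with Efnb2. Epha4 reached at most 0.361 with any other of the 10 genes (Efnb1). Among 7836 genes with a mean of at least 10 CPM, Efnb2 was most like Ltbp1 (0.904), Foxd1 (0.900) and Pkdcc (0.883). Epha5 was most like Pla2g7 (0.923), Sp8 (0.913) and Cdx4 (0.913), the last a posterior homeobox gene, and Epha1 was most like Lin28a (0.926), Lhpp (0.918) and Evx1 (0.917). Ephb2 followed Zbtb16 (0.914), Gdf11 (0.849) and Cpxm1 (0.822), Ephb3 followed Rgmb (0.853), Cep162 (0.824) and Zfhx3 (0.816), and Efna5 followed Mdk (0.873), Txndc12 (0.866) and Zmiz1 (0.845). Epha4 was less close to any gene, with Greb1l (0.760), Adgrl2 (0.753) and Magi1 (0.729) nearest, and Efnb1 least, with Pakap.1 (0.688), Cntfr (0.648) and Sptlc1 (0.624). Epha7 was nearest to Tcf4 (0.827), Knstrn (0.810) and Rps6ka3 (0.809), and Epha3 to Tspan9 (0.823), Cers6 (0.813) and Phactr2 (0.784).

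Of 12 other receptors and ephrins listed, 11 were in the table. In whole stembryos edgeR called 0 of the 10 tested over time (3 at an unadjusted p under 0.05, 2 by DESeq2), and with the block 2 rose and 2 fell, where 8.89% of all genes were called higher and 8.15% lower. Efna1, a ligand for EphA receptors, fell by 1.80 on the log2 scale (adjusted p = 0.00188) and Epha2, a receptor of epithelia and early embryos, fell by 1.27 (adjusted p = 0.0104), while Efnb3 rose by 0.77 (adjusted p = 0.00699) and Efna2 by 0.49 (adjusted p = 0.0126). At 120 h, Ephb1 was highest at the determination front (23.9 ± 5.31 CPM), as Epha4 and Efnb2 were. Among clusters with 3 pools, Ephb4, the venous partner of ephrin-B2, had its highest mean in late PSM (33.9 ± 5.44 CPM), as did Efna3 (37.1 ± 5.48 CPM), with Efna4 highest in somite B (69.5 ± 5.58 CPM) and Ephb6 in NMPs C (4.66 ± 0.323 CPM).

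Of 32 signalling partners, all in the table, edgeR called 0 in whole stembryos without the block (6 at an unadjusted p under 0.05, 2 by DESeq2). With it 4 rose and 1 fell, a share near the 17.0% of all genes called, so the calls are given gene by gene and not as a result about the partners. Those that rose were the kinase Abl1 (log2 change 0.46, adjusted p = 0.0124), the ephrin-cleaving protease Adam10 (0.67, adjusted p = 0.00233), the phosphatase Ptpn13 (0.75, adjusted p = 0.00440) and the phosphoinositide 3-kinase subunit Pik3r1 (1.33, adjusted p = 0.000485). The adaptor Grb7 fell by 1.11 (adjusted p = 0.0164). Within NMP cells 3 of 32 partners were called with the block (7.20% of all genes) and within PSM cells 3 of 27 (6.89%). Adam10 and Pik3r1 also rose with the block within NMP cells (0.52 and 0.82) and within PSM cells (0.55 and 1.53), Grb7 fell by 1.24 within NMP cells, and Rgs3, a regulator that can act downstream of B ephrins, rose by 1.18 within PSM cells (adjusted p = 0.0402). In the split somite cells the adaptor Grb10, an imprinted gene, was the 1 of 26 partners tested that was called, higher in Uncx cells (1.10 ± 0.19, adjusted p = 1.97e-05), where 1.36% of all genes were called.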

How the data were processed

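Single-cell RNA-seq (10x, V3 and V3.1) of 6 libraries was used, grouped by the sample titles. According to the submitters' processing notes the authors aligned reads to mm10 and counted UMIs with Cell Ranger 6.0 and filtered cells with Seurat 4.0.2. The deposited table gave UMI counts for 25595 genes in 26968 cells, and cell totals equalled those of the authors' annotation for all 26968 cells. In the deposited annotation the mitochondrial share was a percent and the cell cycle values were a score, and the scores were not used. Doublets had been removed by the study through an upper UMI limit, so no caller was run. All deposited per-sample columns were matched to a sample (0 unmatched). The labels do not say that replicates came from separate cultures, so p-values cover these samples only. The edgeR test takes part of each gene's spread from all genes. In the splits of cells its SE and p-values therefore do not measure how far the pools of a gene differed, and values are given per pool.

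Levels are UMI counts per 1000000 UMIs (CPM). Counts were summed per library and cluster (at least 25 cells). Sums were tested across all genes with edgeR 4.0.16 (R 4.3.3), with factors from the trimmed mean of M-values, filterByExpr, the quasi-likelihood test and Benjamini-Hochberg adjusted p under 0.05, and the SE was the log2 change over the root of F. The fits were tested on simulated data. DESeq2 1.42.0, no normalization factors, no filter, cells above 1.5 times the mean UMI count left out, cells thinned to 5000 UMIs and leaving out each library were tried. The comparison in NMPs A and the use of 1 part in place of the dissected pool were added after seeing the data. Over time the main fit had no block. The annotation puts replicate 1 of both times in batch 1 and replicate 2 of both in batch 4, and deviations of same-numbered libraries correlated (r = 0.567 in whole sums, 0.541 in NMP and 0.429 in PSM sums), so values with the replicate as a block are given where they change a call. Cells were classed by at least 1 UMI of Mesp2, Uncx or Tbx18, and 46 somite cells with both Uncx and Tbx18 and 2037 with neither were left out. These splits used the pool as a block. Poisson intervals were exact (95%).

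The genes, the lists and the markers were chosen with earlier results of these data known. All 10 genes were named, other family members where called or with at least 1000 UMIs in all, signalling partners where called, and for each of the 10 genes the 3 most alike by Pearson's r. Promoters were those of RefSeq, cut to the 250 bases before the start.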

Additional observations from a re-analysis of the deposited data

Results flagged for a closer look

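For 3 genes the change over time differed between PSM and NMP cells in the test of the interaction (edgeR). The log2 change in PSM minus that in NMP cells was -1.10 for Epha4 (adjusted p = 0.000232), 1.02 for Ephb2 (adjusted p = 0.0103) and 2.11 for Ephb3 (adjusted p = 0.00964). Without 120 h replicate 1 the values were -1.22, 1.17 and 2.19 in the same order, and none was called. By DESeq2 only Epha4 was called. The clusters that made up the sums of both classes differed between the times.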

How the results depend on the processing

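The direction of the 10 genes' changes and their side of the threshold held in 281 of 348 cases when a setting other than a left-out library was altered, and in 162 of 194 when a library was left out. Of levels, 242 kept within 1 SD or their interval and 8 did not. Efnb2 over time, in whole stembryos and in PSM cells, kept its call in every setting run. The cause of the other changes was not tested. In whole stembryos the count of all genes called over time was 153, and it was 1155 with DESeq2, 1199 with no filter, 3088 with the replicate block, 514 with the dissected parts as an added 120 h pool, and 100 to 399 leaving out each library. The count among the 10 genes was 1, and it was 5, 6, 7 and 3 in the same settings and 1 to 3 leaving out each library. In NMP cells 1 gene of all was called, and 446, 1010, 1122 and 22 in the same settings (0 to 292 leaving out each library). Among the 10 genes 0 were, with 3 by DESeq2, 4 with no filter, 2 with the block and 0 to 1 leaving out each library. In PSM cells 52 were, and 169, 528, 828 and 184 (23 to 545 leaving out each library). Among the 10 genes 1 was, with 4 with no filter, 5 with the block and 1 to 3 leaving out each library. In NMPs A the block gave 86 genes in place of 4.

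For the PSM minus NMP difference 231 genes were called, with 113 by DESeq2, 414 with no filter and 44 to 417 leaving out each library, and 3 of the 10 genes were, with 1 by DESeq2 and 0 to 3 leaving out each library. For Uncx and Tbx18 cells 154 genes were called, with 41 by DESeq2, 4 with no replicate block, 27 in thinned cells, 70 in somite B alone (where whole replicate 2 had 0 Tbx18 cells) and 67 to 186 leaving out each pool. Of the 10 genes 2 were, with 1 by DESeq2, 0 with no block, in thinned cells or in somite B alone, and 1 to 2 leaving out each pool. For Mesp2 cells 510 genes were called, with 120 by DESeq2, 28 with no replicate block, 145 in thinned cells and 135 to 408 leaving out each pool. Of the 10 genes 2 were, with 0 without the block, 1 by DESeq2, in thinned cells or without cells above 1.5 times the mean UMI count, and 1 to 2 leaving out each pool.

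Changes that turned sign were all uncalled. Without normalization factors, which moved the median of all genes in PSM to 0.11, whole Epha4 was at 0.08 and NMP Ephb3 at 0.07. Without cells of high UMI count, NMP Ephb3 was at 0.03, the Epha5 difference at 0.00, Ephb3 in Uncx cells at -0.04, Efnb1 in Uncx cells at 0.01 and Efna5 in Mesp2 cells at 0.00. With the dissected parts as an added 120 h pool, PSM Epha5 was at 0.14. In Uncx cells, thinned Ephb2 and Ephb3 were at 0.35 and -0.48, Ephb3 in somite B alone at -0.15, and Efnb1 at 0.04 by DESeq2, 0.03 with no filter, 0.01 with no block and 0.28 in somite A alone. In Mesp2 cells, thinned Efnb2 and Efna5 were each at 0.01, and Efna5 at 0.03 by DESeq2, 0.02 with the parts as separate libraries and 0.02 with the posterior part in place of the pool. Leaving out each library, values ranged from -0.14 to 0.13 for whole Epha4, -0.12 to 0.28 for NMP Epha5 and -0.11 to 0.28 for PSM Efna5. The differences ranged from -0.41 to 0.20 for Epha1, -0.53 to 0.00 for Epha5, -0.69 to 0.09 for Epha7 and -0.50 to 0.32 for Efnb1. In Uncx cells they ranged from -0.76 to 0.72 for Epha5, -0.42 to 0.23 for Epha7, -0.33 to 0.46 for Efnb1 and -0.35 to 0.26 for Efna5, and in Mesp2 cells from -0.06 to 0.00 for Efnb2 and -0.34 to 0.43 for Efna5. The planned comparison of single clusters over time was not run, since no cluster had 25 cells in all 4 whole libraries. Depth limits Epha3 most, with 166 UMIs in all, then the small Tbx18 and Mesp2 sums of whole replicate 2.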
